A study of Mus musculus with 12 samples.

Results

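The proteasome genes of mouse fat were followed across 4 adipose depots by RNA sequencing of whole tissue. They were taken as every row of the deposited count table whose symbol starts with Psm, then a letter from a to g and a digit, which gave 49 of the 23420 genes in the table. Brown fat was sampled at an interscapular site (iBAT) and a supraclavicular site (scBAT), and white fat at an inguinal, subcutaneous site (iWAT) and around the epididymis (eWAT), with 3 libraries from each depot. All 12 libraries came from male C57BL/6 mice, 8 weeks old, untreated and kept at ambient temperature, and no sample carried a transgene, a deletion or an agent. Whether the replicates of a depot came from separate animals is not stated in the labels, so a p-value here covers only the spread among these samples, which may be technical. Of the 49 genes, 48 passed the filter on low counts and were tested. One row of the 49, Psmc3ip, encodes a recombination factor and not a proteasome subunit, although its symbol contains that of the ATPase gene Psmc3. Its values stand apart from those of the proteasome.

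The proteasome degrades proteins tagged with ubiquitin. Its barrel, the 20S core, is built from outer alpha rings and inner beta rings, and the beta subunits Psmb5, Psmb6 and Psmb7 carry the chymotrypsin-like, caspase-like and trypsin-like cutting sites. The 19S cap binds the tagged protein, removes the ubiquitin and unfolds the chain with a ring of ATPases, and core and cap together form the 26S proteasome. In immune cells, and in other cells exposed to interferon-gamma, the beta subunits Psmb8, Psmb9 and Psmb10 replace Psmb5, Psmb6 and Psmb7 in newly built cores, and this immunoproteasome makes peptides suited to MHC class I presentation. In mouse brown fat the transcription factor Nfe2l1 (Nrf1) is known to drive proteasome genes during thermogenesis.

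The results turn on the catalytic subunits that replace each other. The promoter windows of 4 of them are printed, each around the RefSeq start of its gene. The windows are those of RefSeq on GRCm38.p6, 300 bases each, from 250 before to 50 after the start of transcription, written 5′ to 3′ on the strand of the gene. Psmb8 (chr17:34197945-34198244, plus strand) and Psmb9 (chr17:34187281-34187580, minus strand) lie close together in the MHC region. Psmb5 (chr14:54617946-54618245, minus strand) and Psmb6 (chr11:70525107-70525406, plus strand) are the constitutive counterparts. Capitals mark matches to any of 4 motifs searched on both strands: the core of an interferon-stimulated response element (GAAA, any 2 bases, GAAA), TTCNNNGAA (the core of a gamma-activated sequence), TGACNNNGC (the core of an antioxidant response element, which Nrf1 and its relatives bind) and CCAAT.
Psmb8: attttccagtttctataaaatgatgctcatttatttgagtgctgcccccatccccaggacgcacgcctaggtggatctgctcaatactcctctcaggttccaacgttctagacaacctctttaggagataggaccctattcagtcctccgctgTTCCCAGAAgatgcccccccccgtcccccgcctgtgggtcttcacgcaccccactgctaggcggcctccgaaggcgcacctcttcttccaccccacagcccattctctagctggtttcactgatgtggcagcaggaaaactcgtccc
Psmb9: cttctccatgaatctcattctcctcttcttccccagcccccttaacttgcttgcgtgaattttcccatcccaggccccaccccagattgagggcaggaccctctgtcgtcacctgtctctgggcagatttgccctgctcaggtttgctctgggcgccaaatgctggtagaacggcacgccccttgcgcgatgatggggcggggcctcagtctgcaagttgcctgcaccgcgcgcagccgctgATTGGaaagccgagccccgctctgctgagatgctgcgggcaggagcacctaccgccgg
Psmb5: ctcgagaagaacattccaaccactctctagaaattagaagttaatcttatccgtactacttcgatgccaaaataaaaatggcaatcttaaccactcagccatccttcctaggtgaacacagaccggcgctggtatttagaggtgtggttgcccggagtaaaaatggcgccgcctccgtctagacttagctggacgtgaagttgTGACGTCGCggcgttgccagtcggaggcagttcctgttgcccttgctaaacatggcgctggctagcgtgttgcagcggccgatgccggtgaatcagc
Psmb6: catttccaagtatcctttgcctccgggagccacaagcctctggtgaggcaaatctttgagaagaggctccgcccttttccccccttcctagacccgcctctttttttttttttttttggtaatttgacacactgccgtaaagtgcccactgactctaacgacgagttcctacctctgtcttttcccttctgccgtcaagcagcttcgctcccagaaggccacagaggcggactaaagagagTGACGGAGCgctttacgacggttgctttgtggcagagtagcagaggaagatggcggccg

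Each of these windows held 1 match, and no matches overlapped. The Psmb8 window held TTCCCAGAA, a gamma-activated sequence core, starting 97 bases before the start site (position -97). The Psmb9 window held the CCAAT box on the opposite strand, read as ATTGG at position -8. The antioxidant response core stood as TGACGTCGC at position -47 in Psmb5 and as TGACGGAGC at position -9 in Psmb6. The window of Psmb10 held none of the 4 motifs.

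Windows were found for 41 of the 49 genes, 44 windows in all, because some genes have several starts. Among the 27 windows of constitutive 20S and 19S genes, 4 held the antioxidant response core (14.8%), those of Psmb5, Psmb6, Psmc6 and Psmd12, against 12.4% of all 32851 windows. The CCAAT box was in 37.0% of the constitutive windows and in 37.4% of all windows. The interferon-stimulated core was in 2 of the 27 windows (7.41%), those of Psmb3 and Psmd4, against 3.44% of all windows, and in none of the 3 immunoproteasome windows. The gamma-activated core was in 8.3% of all windows and in 1 constitutive window, that of Psmd2. A match describes letters in a window and does not show binding. The Psmb8 and Psmb9 windows lie wholly inside the spans of these genes in GENCODE M21. Bases before the outermost GENCODE start of either gene were therefore not part of its window.

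Total counts ran from 17159401 to 29262554 per library, and the spread between replicates differed by depot. The biological coefficient of variation was 12.0% in iBAT, 15.1% in scBAT, 14.7% in eWAT and 41.8% in iWAT. Adipocyte markers (6 genes) were high in every library, at a summed 3537 to 9264 CPM. CPM is a gene's count relative to the TMM-scaled total of its library. Brown adipocyte markers (5 genes) summed to 3505 to 4641 CPM in the brown libraries and 71.7 to 307 CPM in the white ones. The iWAT libraries 1 and 3 stood apart, since the 10 B cell markers summed to 1881 and 2609 CPM there, 119 CPM in iWAT 2, 23.7 to 66.4 CPM in eWAT and at most 12.6 CPM in brown fat. The 10 T cell markers summed to 1039, 70.6 and 1621 CPM in iWAT libraries 1 to 3 and to 11.2 to 24.2 CPM elsewhere. RNA of lymphocyte markers was thus present in all iWAT libraries at unequal levels. Results for the immunoproteasome genes, and some of those for the family, are therefore given with and without libraries 1 and 3. Leaving both out keeps a single iWAT library, which is assumed to vary like the other depots. The 3 iWAT libraries varied far more than that, so the SE and p-values of this fit may be too small.

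Proteasome genes as a family made up more of the brown RNA. The 49 genes took 0.518 to 0.561% of the counts in the 6 brown libraries and 0.422 to 0.504% in the 6 white ones, which did not overlap. Brown fat was compared with white fat by subtracting the average of iWAT and eWAT from that of iBAT and scBAT, using edgeR's quasi-likelihood F test and p-values adjusted by Benjamini-Hochberg across the 14898 genes, with 0.05 as the threshold. Of the 48 tested family members, 35 were higher in brown fat and 4 were lower. Over all tested genes 31.3% were called higher and 38.1% lower, 69.4% in either direction. The median log2 difference was 0.55 over the 31 constitutive 20S and 19S genes and -0.11 over all tested genes. In 26 of the 48 members the lowest brown library lay above the highest white one, as it did in 23.3% of all tested genes. All brown libraries lay below all white ones in 0 members and in 21.9% of all tested genes. In whole-tissue RNA, fewer cells of a type and less RNA per cell cannot be told apart.

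**Figure D1:**
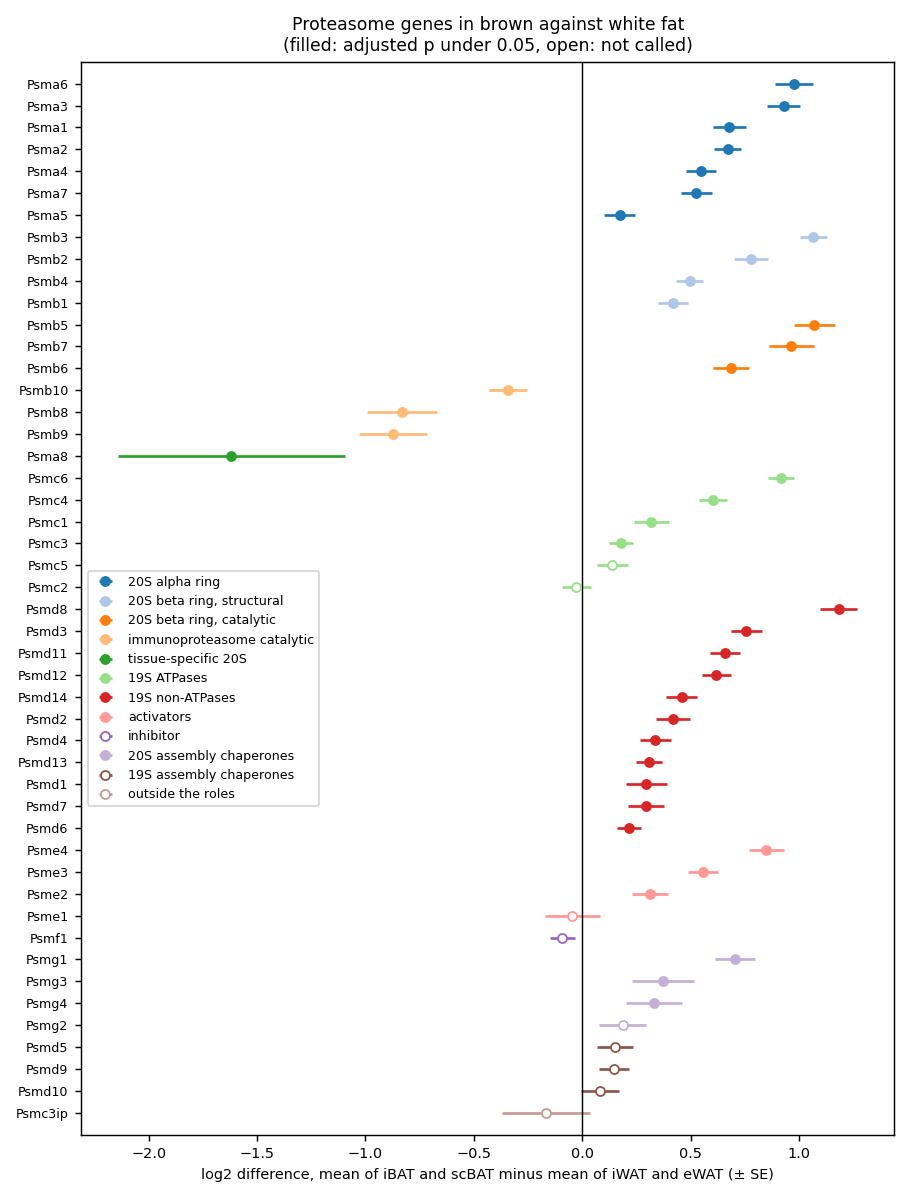
Log2 difference between brown and white fat, ± SE, for the 48 tested genes, grouped by role, with filled points for genes past the threshold of 0.05 and open points for the others. The 14 constitutive 20S genes all lie to the right of 0, and Psmb8, Psmb9, Psmb10 and Psma8 are the filled points to the left.

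**Figure D2:**
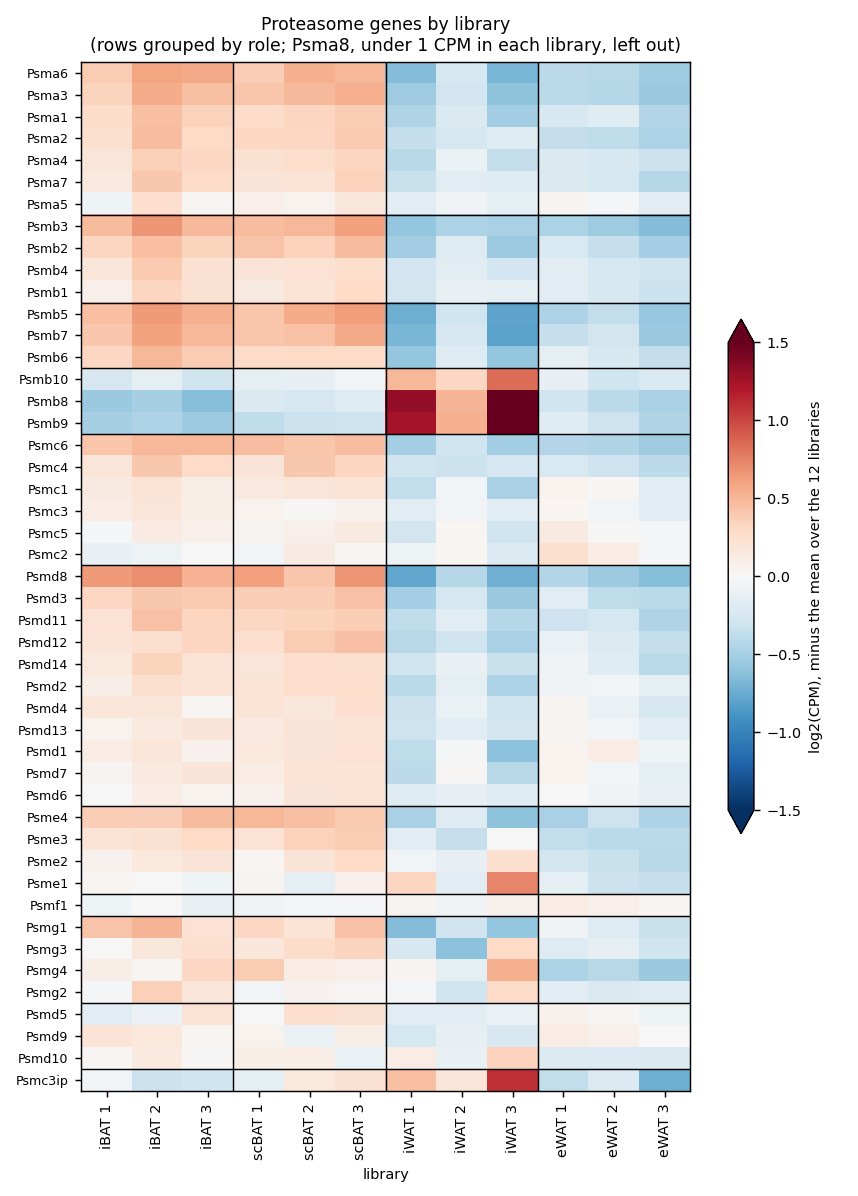
Level of each tested gene but Psma8 in each of the 12 libraries, as log2 CPM minus the mean of that gene over the libraries, with rows grouped by role and colours that end at 1.5 either way. Most constitutive rows are high in the 6 brown libraries, while Psmb8, Psmb9 and Psmb10 are highest in the iWAT libraries.

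All 14 genes of the constitutive 20S core were higher in brown fat, with a median log2 difference of 0.68 (range 0.17 to 1.07). In the alpha ring, which gates entry to the barrel, 7 of 7 genes were higher. Psma6 had the largest difference of the ring. Its level was 219, 253 and 249 CPM in iBAT libraries 1 to 3, 218, 244 and 237 CPM in scBAT, 107, 139.7 and 105 CPM in iWAT and 128, 126 and 116 CPM in eWAT. Every brown library lay above every white one, and the brown to white difference was 0.98 ± 0.09 (log2, SE), or 1.97-fold (edgeR, adjusted p = 3.45e-06).

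Psma5 had the smallest difference of the ring. It stood at 72.4, 90.2 and 76.5 CPM in iBAT, 79.9, 78.6 and 85.4 CPM in scBAT, 67.4, 73.0 and 68.1 CPM in iWAT and 77.6, 74.9 and 67.8 CPM in eWAT. The brown and white ranges overlapped, and the difference was 0.17 ± 0.07 (edgeR, adjusted p = 0.0472), a call that was lost in many of the other settings tried. Psma3 (0.93), Psma1 (0.68), Psma2 (0.67), Psma4 (0.55) and Psma7 (0.53) lay between these on the log2 scale.

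The structural beta subunits, which complete the inner rings without a cutting site, were higher in 4 of 4 cases. Psmb3 was measured at 154, 175 and 155 CPM in iBAT, 154, 157 and 169.8 CPM in scBAT, 74.2, 80.4 and 79.5 CPM in iWAT and 79.9, 76.5 and 71.0 CPM in eWAT. The groups were far apart, with 2.09-fold more in brown fat (log2 1.06 ± 0.06, edgeR adjusted p = 2.12e-07). Psmb1, the least different, had 156, 184 and 174 CPM in iBAT, 162, 169.9 and 181 CPM in scBAT, 122, 137 and 135 CPM in iWAT and 131, 125 and 119 CPM in eWAT. Its brown libraries also all exceeded the white ones, by a log2 difference of 0.42 ± 0.07 (edgeR, adjusted p = 0.000251).

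Each of the 3 constitutive catalytic subunits was higher in brown fat. Psmb5, the chymotrypsin-like subunit, stood at 84.6, 95.8 and 90.1 CPM in iBAT, 82.5, 90.8 and 95.0 CPM in scBAT, 37.0, 50.3 and 35.7 CPM in iWAT and 44.6, 47.8 and 41.5 CPM in eWAT. No white library reached a brown one, and the difference was 2.10-fold (log2 1.07 ± 0.09, edgeR adjusted p = 3.10e-06). Psmb6, the caspase-like subunit, had 149.6, 171 and 157 CPM in iBAT, 147, 149 and 148 CPM in scBAT, 80.4, 106 and 80.9 CPM in iWAT and 109.9, 102 and 94.3 CPM in eWAT. The groups did not overlap here either, at a log2 difference of 0.69 ± 0.08 (edgeR, adjusted p = 3.02e-05). Psmb7, the trypsin-like subunit, had 239.6, 277 and 256 CPM in iBAT, 243, 246 and 269 CPM in scBAT, 113, 152 and 104 CPM in iWAT and 143, 149.8 and 124 CPM in eWAT. Again all brown libraries were above all white ones, by 0.96 ± 0.10 on the log2 scale (edgeR, adjusted p = 1.28e-05). In all 3 genes iWAT 1 and 3 were below iWAT 2.

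Of the 17 genes of the 19S cap, 15 were higher in brown fat and 2 were not called, with a median log2 difference of 0.34 (range -0.03 to 1.18). Among the 6 ATPases, which unfold the substrate, Psmc6 differed most. It had 158, 167 and 167 CPM in iBAT, 163, 157 and 162 CPM in scBAT, 83.1, 96.2 and 82.4 CPM in iWAT and 87.1, 86.1 and 81.6 CPM in eWAT. The brown values were tightly grouped and all above the white ones, at 1.89-fold (log2 0.92 ± 0.06, edgeR adjusted p = 3.81e-07).

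Psmc2, another ATPase of the same ring, showed no such separation. Its values were 90.8, 92.7 and 97.8 CPM in iBAT, 95.4, 106 and 99.6 CPM in scBAT, 92.6, 100.1 and 84.8 CPM in iWAT and 116, 106 and 95.7 CPM in eWAT. The highest library was a white one and the ranges overlapped (log2 difference -0.03 ± 0.07, edgeR adjusted p = 0.732). Psmc5 was the other cap gene not called, at 0.14 ± 0.07 (edgeR, adjusted p = 0.109). Psmc4 (0.60), Psmc1 (0.32) and Psmc3 (0.18) were higher in brown fat on the log2 scale, so the members of this single ring differed by very unequal amounts.

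All 11 non-ATPase genes of the cap were higher in brown fat. Psmd8 had the largest log2 difference of all members that were higher in brown fat. Its level was 313, 323 and 288 CPM in iBAT, 306, 267 and 316 CPM in scBAT, 117, 148 and 121 CPM in iWAT and 147, 137 and 129 CPM in eWAT. The lowest brown library held far more than the highest white one, and the difference was 2.27-fold (log2 1.18 ± 0.09, edgeR adjusted p = 7.79e-07). Psmd6 had the smallest difference of the 11 genes, with 72.3, 78.1 and 74.7 CPM in iBAT, 75.4, 82.6 and 84.2 CPM in scBAT, 63.9, 66.3 and 63.2 CPM in iWAT and 72.5, 69.6 and 67.1 CPM in eWAT. The lowest brown value was just under the highest white one (log2 0.21 ± 0.05, edgeR adjusted p = 0.00474). Psmd14, the enzyme that cuts ubiquitin chains off the substrate, was 0.46 ± 0.07 higher, and Psmd4, a ubiquitin receptor, was 0.34 ± 0.07 higher on the log2 scale (edgeR, adjusted p = 0.000241 and 0.00163).

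The 3 chaperones that help assemble the cap were not called in either direction between brown and white fat. Psmd5 stood at 46.1, 48.9 and 60.4 CPM in iBAT, 51.9, 61.7 and 60.6 CPM in scBAT, 46.1, 46.3 and 48.3 CPM in iWAT and 54.3, 52.7 and 49.2 CPM in eWAT. Psmd10, also called gankyrin, had 21.6, 23.6 and 21.6 CPM in iBAT, 22.6, 22.9 and 19.9 CPM in scBAT, 23.1, 19.8 and 27.1 CPM in iWAT and 18.6, 18.5 and 18.4 CPM in eWAT. Brown and white ranges overlapped for both, and the log2 differences were 0.15 ± 0.08 for Psmd5 and 0.08 ± 0.09 for Psmd10 (edgeR, adjusted p = 0.120 and 0.421). Psmd9 differed by 0.14 ± 0.07 (edgeR, adjusted p = 0.0834).

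Chaperones of the 20S core were higher in 3 of 4 cases. Psmg1, which pairs with Psmg2 to guide the alpha ring together, had 41.1, 43.5 and 35.7 CPM in iBAT, 38.0, 35.3 and 41.4 CPM in scBAT, 19.4, 24.9 and 20.4 CPM in iWAT and 29.4, 26.6 and 24.2 CPM in eWAT. All brown libraries exceeded all white ones, at 1.63-fold (log2 0.71 ± 0.09, edgeR adjusted p = 5.56e-05). Its partner Psmg2 had 17.1, 22.2 and 19.7 CPM in iBAT, 16.9, 18.04 and 17.6 CPM in scBAT, 17.1, 14.1 and 21.2 CPM in iWAT and 15.5, 14.9 and 15.3 CPM in eWAT. The ranges of Psmg2 overlapped, and its difference of 0.19 ± 0.11 was not called (edgeR, adjusted p = 0.149). Psmg3 and Psmg4, the other pair, were higher by 0.37 ± 0.14 and 0.33 ± 0.13 (edgeR, adjusted p = 0.0362 and 0.0416), calls near the threshold that did not hold in several other settings.

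The activators, which cap the barrel in place of 19S and open its gate without ATP, did not move together. Psme4, the large single-chain activator, stood at 243, 243 and 260.3 CPM in iBAT, 265, 255 and 246 CPM in scBAT, 133, 163 and 123 CPM in iWAT and 133, 151 and 136 CPM in eWAT. Brown and white libraries were fully separated, by a log2 difference of 0.85 ± 0.08 (edgeR, adjusted p = 5.75e-06). Psme3, which forms a nuclear activator ring, was 0.56 ± 0.07 higher in brown fat (edgeR, adjusted p = 3.64e-05).

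Psme1 and Psme2 form the ring induced by interferon-gamma. Psme1 had 139, 136 and 131 CPM in iBAT, 140.4, 124 and 144 CPM in scBAT, 170.4, 122 and 226 CPM in iWAT and 124, 109 and 107 CPM in eWAT. Psme2 had 165, 176 and 181 CPM in iBAT, 160.2, 179 and 194 CPM in scBAT, 153, 145 and 188 CPM in iWAT and 130.2, 125 and 118 CPM in eWAT. For both genes eWAT was the lowest depot on average, and iWAT 1 and 3 were above iWAT 2. Psme1 was not called between brown and white fat (-0.05 ± 0.13, edgeR adjusted p = 0.762), while Psme2 was higher in brown fat (0.31 ± 0.08, edgeR adjusted p = 0.00621). Without iWAT libraries 1 and 3 the difference of Psme1 was 0.22, so its direction turned. Psmf1, an inhibitor of the core, was not called, at -0.09 ± 0.06 (edgeR, adjusted p = 0.164).

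The immunoproteasome subunits went the other way, and 3 of 3 were lower in brown than in white fat. Psmb8, which takes the place of Psmb5, stood at 46.3, 48.2 and 43.6 CPM in iBAT, 58.7, 57.1 and 59.3 CPM in scBAT, 169.8, 97.3 and 225 CPM in iWAT and 55.5, 51.3 and 48.5 CPM in eWAT. All 3 iWAT libraries were above every other library, and eWAT lay among the brown libraries. The brown to white difference was -0.83 ± 0.16 (edgeR, adjusted p = 0.000923), and -0.44 ± 0.06 without iWAT 1 and 3 (adjusted p = 6.76e-05).

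Psmb9, which takes the place of Psmb6, had 26.6, 27.3 and 25.7 CPM in iBAT, 28.8, 29.9 and 30.3 CPM in scBAT, 89.2, 54.2 and 118 CPM in iWAT and 33.1, 30.2 and 27.4 CPM in eWAT. Again all iWAT libraries stood above all others, and eWAT overlapped brown fat (-0.87 ± 0.16, edgeR adjusted p = 0.000505, and -0.52 without iWAT 1 and 3). Psmb10, which takes the place of Psmb7, had 52.2, 56.1 and 50.3 CPM in iBAT, 55.8, 57.1 and 60.5 CPM in scBAT, 87.3, 77.1 and 111 CPM in iWAT and 57.1, 50.6 and 53.1 CPM in eWAT. Its iWAT libraries were again the 3 highest, over a narrower range (-0.34 ± 0.09, edgeR adjusted p = 0.00508, and -0.21 without iWAT 1 and 3).

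**Figure D3:**
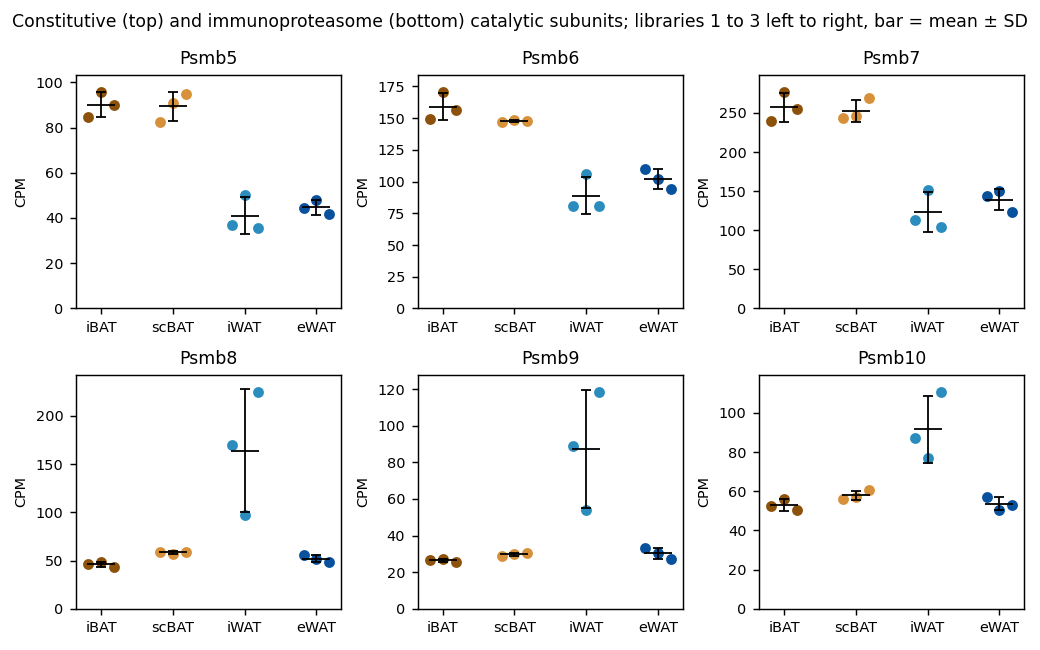
CPM of the constitutive catalytic subunits (top row) and of the immunoproteasome subunits (bottom row) in each library by depot, with the mean and SD of each depot as bars. The constitutive genes are high in both brown depots, with Psmb5 between 82.5 and 95.8 CPM there, while Psmb8, Psmb9 and Psmb10 are high in iWAT alone.

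Set against each white depot in turn, the immunoproteasome genes were lower in brown fat than in iWAT and were not called against eWAT. Psmb8 differed from iWAT by -1.83 ± 0.23 in iBAT and -1.49 ± 0.23 in scBAT (edgeR, adjusted p = 8.73e-05 and 0.000343). Psmb9 differed from iWAT by -1.72 ± 0.22 and -1.56 ± 0.22, and Psmb10 by -0.79 ± 0.13 and -0.66 ± 0.12, all past the threshold. Without iWAT 1 and 3 the differences from iWAT shrank to -1.08 in iBAT and -0.74 in scBAT for Psmb8. They were -1.03 and -0.87 for Psmb9 and -0.54 and -0.42 for Psmb10. On the iWAT side these differences rest on library 2 alone. Against eWAT the log2 difference of Psmb8 was -0.17 ± 0.23 in iBAT and 0.17 ± 0.23 in scBAT (edgeR, adjusted p = 0.554 and 0.551). The other 2 genes lay between -0.19 and 0.11 against eWAT and were not called. Without iWAT 1 and 3 in the fit, Psmb8 was called higher in scBAT than in eWAT (0.19 ± 0.07, adjusted p = 0.0353).

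The count of each immunoproteasome subunit was divided by that of the subunit it replaces within a library, a ratio that needs no scaling between libraries. For Psmb8 to Psmb5 the ratio was 0.548, 0.503 and 0.484 in iBAT, 0.712, 0.629 and 0.625 in scBAT, 4.59, 1.93 and 6.30 in iWAT and 1.24, 1.07 and 1.17 in eWAT. For Psmb9 to Psmb6 it was 0.178, 0.160 and 0.164 in iBAT, 0.196, 0.201 and 0.205 in scBAT, 1.11, 0.513 and 1.46 in iWAT and 0.301, 0.295 and 0.291 in eWAT. For Psmb10 to Psmb7 it was 0.218, 0.203 and 0.197 in iBAT, 0.230, 0.232 and 0.225 in scBAT, 0.774, 0.507 and 1.06 in iWAT and 0.398, 0.338 and 0.430 in eWAT. In all 3 pairs the depots ran in the order iBAT, scBAT, eWAT and iWAT without any overlap between neighbouring depots.

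The mean log2 ratio was lower in brown than in white fat by amounts that differed between the pairs. The difference was -1.87 for Psmb8 to Psmb5, -1.53 for Psmb9 to Psmb6 and -1.31 for Psmb10 to Psmb7. For each pair an exact two-sided permutation test over the 924 ways to split 6 brown and 6 white libraries gave p = 0.00216, the smallest it can give, also after Benjamini-Hochberg adjustment over the 3 ratios. Any measure without overlap between brown and white gives this p. By level, 23.3% of all tested genes lay wholly above and 21.9% wholly below in brown fat. The test also treats libraries of different depots as exchangeable. With eWAT as the only white depot the differences were -1.005, -0.69 and -0.83, and the exact p was 0.0119, again the smallest possible for 6 against 3. Without iWAT 1 and 3 they were -1.19, -0.89 and -0.93 (exact permutation p = 0.00476, the smallest possible). A test between single depots, 3 against 3, cannot go below 0.1 and was not made. Every brown library thus lay below every eWAT library in these ratios, while the immunoproteasome genes themselves were not called between brown fat and eWAT. Their median log2 difference from eWAT was -0.17 in iBAT and 0.11 in scBAT. The divisors Psmb5, Psmb6 and Psmb7 were all called higher than in eWAT, with medians of 0.89 in iBAT and 0.86 in scBAT. The ratio difference from eWAT was therefore mostly that of the constitutive subunit. Its exact p adds no separate result for the immunoproteasome genes.

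**Figure D4:**
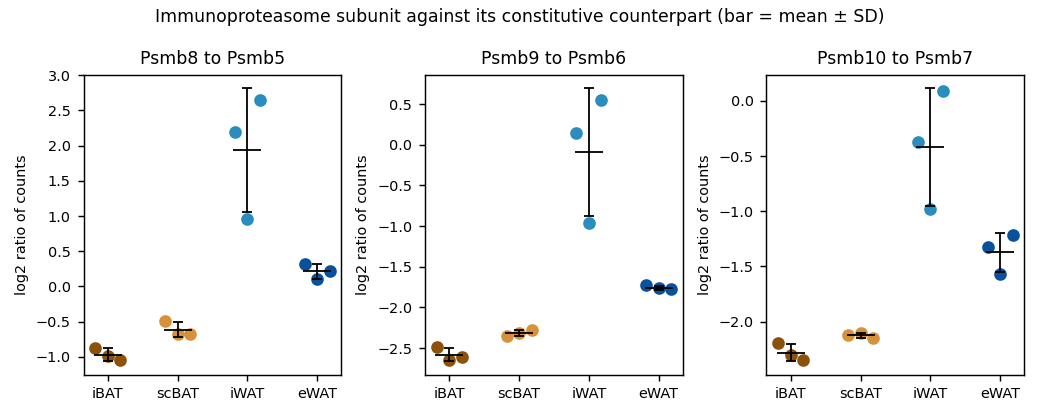
Count of each immunoproteasome subunit divided by that of its constitutive counterpart, as a log2 ratio, 1 point per library, with the mean and SD of each depot as bars. Every brown library lies below every white library in the 3 panels, and the mean log2 ratio of Psmb8 to Psmb5 goes from -0.97 in iBAT to 1.93 in iWAT.

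Per length, Psmb8 was the lower of its pair in every depot but iWAT. CPM per kilobase of exon averaged 28.3 for Psmb8 against 100.3 for Psmb5 in iBAT, 35.9 against 99.4 in scBAT and 31.8 against 49.7 in eWAT. In iWAT Psmb8 averaged 100.7 ± 39.2 (SD, n = 3) and Psmb5 45.6 ± 9.0. Within iWAT, the per-length ratio of Psmb8 to Psmb5 was 2.53, 1.07 and 3.48 in libraries 1 to 3, so library 2 alone had nearly equal levels. The per-length ratio of Psmb9 to Psmb6 and of Psmb10 to Psmb7 stayed under 1 in all 12 libraries, reaching 0.863 and 0.941 in iWAT 3.

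The 3 immunoproteasome genes were highest in the libraries with the most lymphocyte RNA. Within iWAT the B and T cell marker sums and the levels of Psmb8, Psmb9 and Psmb10 were highest in library 3, then 1, then 2, while Psmb5 and Psmb7 were lowest in library 3 and highest in 2. The 8 dendritic cell markers summed to 202, 59.9 and 297 CPM in iWAT libraries 1 to 3 and to 31.7 to 48.5 CPM in the other depots. The 10 macrophage markers summed to 1327 to 1527 CPM in the white libraries, with no gap between iWAT and eWAT, and to 229 to 425 CPM in the brown ones. Much of this sum was Lyz2, at 858, 430 and 930 CPM in iWAT libraries 1 to 3 and 456, 455 and 506 CPM in eWAT. The median macrophage marker stood at 82.8, 131 and 56.3 CPM in iWAT libraries 1 to 3 and 137, 130 and 149 CPM in eWAT. The sum therefore does not show equal macrophage RNA in the white libraries. Adipocyte markers summed to 5432, 9082 and 3537 CPM in iWAT libraries 1 to 3. None of the B cell, T cell, dendritic or macrophage markers was at 0 in any iWAT library. The part of these cells in the level of any subunit was not tested. In iWAT 2, the B and T cell marker sums (119 and 70.6 CPM) and the 3 genes were all above those of every brown and eWAT library.

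**Figure D5:**
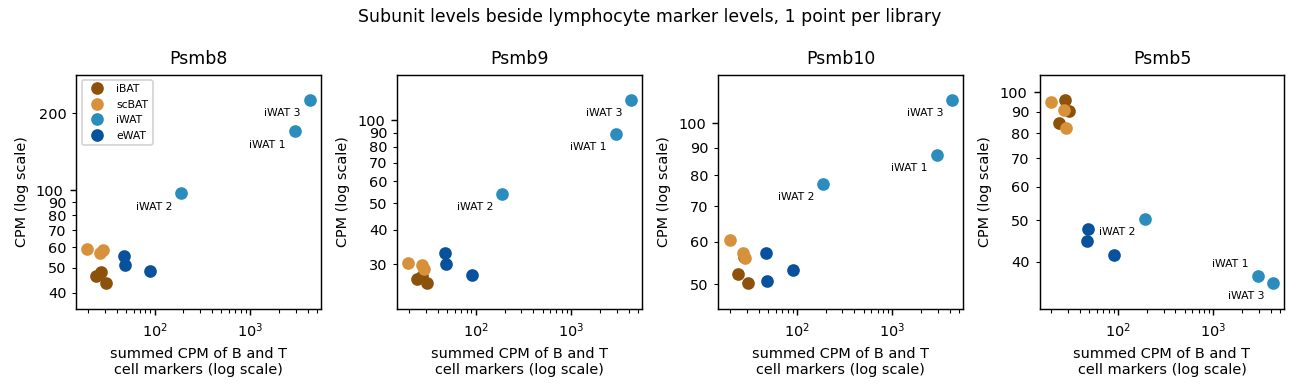
Level of Psmb8, Psmb9, Psmb10 and Psmb5 in each library (log CPM) against the summed CPM of 10 B cell and 10 T cell markers (log axis), 1 point per library. The 3 immunoproteasome genes are highest in iWAT 3, then iWAT 1, then iWAT 2, and Psmb5 is lowest in iWAT 3.

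Skeletal muscle markers moved with the brown depots, at a summed 344 to 5218 CPM over 10 genes against 42.7 to 200.5 CPM in white fat. The brown library with the highest sum, scBAT 1, had the lowest Psmb5 of the 6 brown libraries, 82.5 CPM. The brown library with the lowest sum, iBAT 1, had the next lowest, 84.6 CPM. Muscle RNA and brown depot go together in these libraries and cannot be told apart. The part of muscle in the level of any subunit was not tested.

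No proteasome gene was called between the brown depots. Between scBAT and iBAT edgeR called 0 of 48 members at the adjusted threshold, and 0 were under 0.05 before adjustment. DESeq2 and limma-voom also called 0, with 0 before adjustment. Over all genes 0.329% were called in this comparison, 0.235% higher and 0.094% lower in scBAT. The member differences lay between -0.27 (Psma8) and 0.34 (Psmb8) on the log2 scale, and those of the 31 constitutive genes between -0.10 and 0.11. Without iWAT 1 and 3 in the shared fit, Psmb8 alone was called, higher in scBAT by 0.34 ± 0.07 (edgeR, adjusted p = 0.0451), and 1.87% of all genes were called in that fit.

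Between the white depots 7 of 48 members were called, all higher in iWAT, beside 28.7% of all genes, 17.7% called higher and 11% called lower in iWAT. They were Psmb8 (1.66 ± 0.23, edgeR adjusted p = 0.00235), Psmb9 (1.53 ± 0.22, 0.00289), Psmb10 (0.77 ± 0.12, 0.00415), Psme1 (0.61 ± 0.18, 0.0334), Psme2 (0.38 ± 0.12, 0.0354), Psmg4 (0.66 ± 0.18, 0.0270) and the outsider Psmc3ip (1.05 ± 0.28, 0.0241). Of the 31 constitutive genes, edgeR called 0, with 4 under 0.05 before adjustment. On the same genes DESeq2 called 3 and limma-voom 0. With iWAT 2 as the only iWAT library the differences were 0.93 for Psmb8, 0.86 for Psmb9 and 0.54 for Psmb10. They were 0.12 for Psme1, 0.24 for Psme2, 0.36 for Psmg4 and 0.62 for Psmc3ip. With only iWAT and eWAT in the fit no member was called by edgeR, 7 were under 0.05 before adjustment and 1.43% of all genes were called.

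The count of calls between the white depots moved with single libraries. It was 3 without any 1 eWAT library, without iWAT 1 or without iWAT 3. Without iWAT 2, the remaining libraries gave 24 called members, 10 higher and 14 lower in iWAT, and 12 of the lower ones were constitutive 20S or 19S genes. In that fit 67.2% of all genes were called.

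Each brown depot had higher constitutive genes than each white depot. Of 48 members, 32 were higher and 4 lower in iBAT than in iWAT, where 27.9% of all genes were called higher, 35.2% lower and 63% in either direction. Against eWAT, 25 members were higher and 0 lower in iBAT, beside 26.2% and 27.5% of all genes, 53.7% together. In scBAT 32 members were higher and 3 lower than in iWAT, with 28.1% of all genes called higher, 33.5% lower and 61.6% in all. Against eWAT, 29 members were higher and 0 lower in scBAT, beside 26% and 25.8% of all genes, 51.9% together. Leaving out iWAT 1 and 3, 27 members were higher and 3 lower in each brown depot than in iWAT, beside 24.1% and 26.5% of all genes for iBAT and 23.8% and 25% for scBAT. In the same fit the median log2 difference of the members from eWAT was 0.47 in iBAT and 0.49 in scBAT. With all libraries these medians were 0.45 and 0.47. With only the depots compared in the fit, 35 members were called between iBAT and eWAT and 34 between scBAT and eWAT. Of all genes 71.5% and 68.8% were called there. Such fits called 28 members between iBAT and iWAT and 30 between scBAT and iWAT, beside 48.8% and 45.8% of all genes.

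The 31 constitutive 20S and 19S genes made up most of these calls. In iBAT 28 of them were higher than in iWAT and 20 higher than in eWAT, with median log2 differences of 0.57 and 0.55. In scBAT 28 were higher than in iWAT and 24 higher than in eWAT, with medians of 0.58 and 0.53. Without iWAT 1 and 3, the medians of these genes were 0.45 against iWAT and 0.57 against eWAT for iBAT, and 0.41 and 0.55 for scBAT. These 4 comparisons share samples and an estimate of spread, so their counts do not rank the white depots by likeness to brown fat. The lower calls against iWAT included Psmb8, Psmb9 and Psmb10 in both brown depots, and Psmc3ip in iBAT (-0.85 ± 0.29, edgeR adjusted p = 0.0252).

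Per length, the order of the subunits inside the core was much alike in the depots. The 14 constitutive 20S genes had a median of 138, 134, 88.3 and 87.8 CPM per kilobase in iBAT, scBAT, iWAT and eWAT. Psma2 was the lowest in each depot, and the highest was Psmb7 in the brown and Psmb6 in the white depots. The highest exceeded the lowest 4.45-fold in iBAT, 4.37-fold in scBAT, 3.40-fold in iWAT and 4.30-fold in eWAT. The lowest Spearman correlation between depots was 0.886 over these 14 genes and 0.691 over the 17 cap genes, values that share gene length and annotation. In the cap Psmd11 was the lowest in each depot, while Psmd8 was the highest in brown fat and Psmd2, a scaffold subunit that receives ubiquitin-like domains, in white fat.

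Genes that serve the proteasome under other names were mostly higher in brown fat as well. Of 14 partners, 10 were higher and 1 lower, beside 31.3% and 38.1% of all tested genes, with a median log2 difference of 0.52. Usp14, a deubiquitinase on the cap, had 127, 129 and 116 CPM in iBAT, 117, 109.9 and 121 CPM in scBAT, 59.0, 72.1 and 54.2 CPM in iWAT and 69.6, 72.4 and 63.0 CPM in eWAT. Brown and white did not overlap (0.89 ± 0.08, edgeR adjusted p = 3.35e-06). Shfm1, a small cap subunit, was higher by 0.64 ± 0.05. Among the ubiquilins, shuttles that carry tagged proteins, Ubqln4 was higher by 1.26 ± 0.07 and Ubqln2 lower (-0.85 ± 0.08), and Ubqln1 was not called (0.00 ± 0.10).

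The pathway through which Nrf1 controls proteasome genes was mixed. Of 11 genes 5 were higher in brown fat and 2 lower, beside 31.3% and 38.1% of all tested genes, with a median of 0.31. Without iWAT 1 and 3 the median was 0.097. Nfe2l1 itself was higher by 0.64 ± 0.16, as were Ddi2, the protease that releases it (0.40 ± 0.12), and Ngly1, which strips its sugars (0.38 ± 0.07; edgeR, adjusted p = 0.00471, 0.0118 and 0.000792). Keap1, the adaptor that turns over the relative Nfe2l2, was higher by 0.36 ± 0.05. Of the small Maf partners, Maff was higher (1.01 ± 0.17) and Mafk lower (-0.62 ± 0.10), and the ubiquitin ligase gene Syvn1 was lower (-0.59 ± 0.10).

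Uba1, the main enzyme that activates ubiquitin, was 0.33 ± 0.07 higher in brown fat (log2, edgeR adjusted p = 0.00158). The polyubiquitin gene Ubb was lower (-1.25 ± 0.13, edgeR adjusted p = 9.09e-06), with 12.9 to 19.9 CPM in the brown and 27.8 to 48.3 CPM in the white libraries, which did not overlap.

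The MHC class I pathway, which the immunoproteasome feeds, was lower in brown fat in 10 of 12 genes and higher in 0. Of all tested genes 38.1% were lower and 31.3% higher, and the median of the pathway was -0.52. The 4 smallest adjusted p of the list belonged to Nlrc5, H2-D1, B2m and Pdia3. B2m, the light chain of class I molecules, had 492, 466 and 465 CPM in iBAT, 563, 567 and 579.7 CPM in scBAT, 952, 1082 and 911 CPM in iWAT and 809, 788 and 723 CPM in eWAT. It was highest in iWAT 2, the iWAT library with the fewest lymphocyte markers (-0.75 ± 0.09, edgeR adjusted p = 2.19e-05). H2-D1, a class I heavy chain, was also highest in iWAT 2 (-0.82 ± 0.08). Nlrc5, an activator of class I transcription, had 22.6, 17.3 and 18.3 CPM in iBAT, 20.3, 19.8 and 20.4 CPM in scBAT, 163, 79.8 and 241 CPM in iWAT and 49.1, 47.6 and 51.8 CPM in eWAT. Its iWAT libraries ranked as Psmb8 did, but eWAT stood clear of brown fat (-2.17 ± 0.22, edgeR adjusted p = 8.76e-06). Pdia3, a chaperone of peptide loading, was lower in brown fat (-0.56 ± 0.07, log2).

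Of 20 interferon-response genes 19 were lower in brown fat and 0 higher, beside 38.1% and 31.3% of all tested genes, with a median of -0.68. The examples with the smallest adjusted p were Ifit3 (-1.65 ± 0.13), Irf7 (-1.66 ± 0.16), Cxcl9 (-0.69 ± 0.09) and Gbp2 (-0.52 ± 0.08). Between the white depots 6 of the 12 class I genes and 14 of the 20 interferon genes were higher in iWAT and 0 lower, beside 17.7% and 11% of all genes. The counts without iWAT 1 and 3 were 6 of 12 class I genes and 2 of 19 interferon genes, beside 3.12% of all genes called higher. Between iBAT and eWAT 8 class I and 4 interferon genes were lower in iBAT and 0 higher, beside 27.5% of all genes lower. Between scBAT and eWAT 5 class I and 5 interferon genes were lower in scBAT, and 1 interferon gene was higher, beside 25.8% lower and 26% higher of all genes. These counts rest on an estimate of spread shared with iWAT, the depot with the widest spread. Against eWAT the interferon median was -0.50 in iBAT and -0.44 in scBAT, and the class I median -0.55 and -0.31. Without iWAT 1 and 3 the interferon medians were -0.50 and -0.43, and the class I medians -0.53 and -0.29. Macrophage markers were also lower in brown fat, in 10 of 10 genes beside 38.1% of all genes. Their part in these differences was not tested.

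Among 10111 genes with a mean of at least 10 CPM, the 5 whose log2 level was most like that of Psmb8 over the 12 libraries were Psmb9 (Pearson r = 0.994), Usp18 (0.987), Psmb10 (0.984), Tap2 (0.983) and Pydc3 (0.977). Usp18 removes the ubiquitin-like protein Isg15, and Tap2 is a subunit of the peptide transporter of class I loading. The interferon factor Irf1 ranked 8, while the activator genes Psme1 and Psme2 ranked 1619 and 4105. For Psmb5 the nearest genes were Mpc2 (0.999), Rps27l (0.998), Mpc1 (0.998), Crls1 (0.998) and Prdx3 (0.997). Mpc1 and Mpc2 form the mitochondrial pyruvate carrier, Crls1 makes cardiolipin and Prdx3 is a mitochondrial peroxidase. These correlations describe the libraries, which share depots, and the first follows iWAT while the second follows the split of brown and white.

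The members with a tissue of their own were at the floor of these libraries. Psmb11, the beta subunit of the thymus, had 1, 0 and 1 counts in iBAT, 2, 1 and 0 in scBAT, 1, 0 and 0 in iWAT and 1, 0 and 0 in eWAT, and it was the 1 member not tested. Psma8, the alpha subunit of spermatogenic cells, had 1, 6 and 0 counts in iBAT, 2, 1 and 3 in scBAT, 12, 10 and 13 in iWAT and 12, 13 and 10 in eWAT. It was called lower in brown fat (-1.62 ± 0.52, edgeR adjusted p = 0.0173), at less than 1 CPM in each library. In the 10 fits with 1 library left out where it passed the filter, its difference ran from -2.64, without iBAT 2, to -1.33, without iBAT 3. The call was lost without iBAT 1 (adjusted p = 0.0522), without scBAT 2 (0.0541) and without iWAT 1 and 3 (0.0543). Psmc3ip, the outsider, stood between 0.909 and 3.23 CPM and was not called between brown and white fat (-0.17 ± 0.20, edgeR adjusted p = 0.483).

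On GRCm38 all 49 genes matched a protein-coding gene of GENCODE M21. Psmb8 spans chr17:34197721-34201454 on the plus strand, Psmb9 chr17:34181987-34187764 on the minus strand and Psmb10 chr8:105935735-105938444 on the minus strand. Exons of 13 of the 49 genes share bases with another gene, 3 on the same strand and 10 on the opposite one. Psmb9 shares 212 exon bases with Tap1, which lies head to head with it, and Psmb8 shares 186 with Gm20496. The strand setting of the counting is not given in the sources used here, so reads in those stretches cannot be told apart, and the shared bases are a part of 1352 exon bases in Psmb9 and 1628 in Psmb8.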

How the data were processed

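The deposited table holds raw counts, whole numbers of reads per gene symbol, for 12 libraries. Per the submitters' processing notes the tools were bcl2fastq 1.8.3, STAR 2.4.2a, Picard 1.119, HTSeq 0.6.1p1 and edgeR with build mm10, with no role stated. The annotation and the strand setting are not given in the sources used here. RNA was total RNA in TruSeq libraries, per the labels' protocols.

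From these counts, edgeR 4.0.16 in R 4.3.3 fitted 1 model over the 12 libraries with a mean per depot (TMM factors, filterByExpr on depot, robust quasi-likelihood F test, 8 residual degrees of freedom). The filter left 14898 of 23420 genes, which hold 99.7% or more of every library's counts. Benjamini-Hochberg adjustment ran over all tested genes of a comparison. Adjusted p-values for genes are from this fit unless another tool is named. CPM values use the TMM factors, and log2 CPM used for likeness has a prior count of 2. Values per kilobase divide by the union of the exons of GENCODE M21 basic. Alternatives were DESeq2 size factors, upper quartile scaling, no filter, DESeq2 1.42.0, limma-voom (limma 3.58.1), a replicate block, fits of only the depots compared and leaving out each library.

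The genes given with every library were Psmb5 to Psmb10, Psme1 and Psme2, the members with the largest and smallest brown to white difference of each role and the untested member. From the other lists, genes with the 4 smallest adjusted p of each list and those against its main direction were taken for naming. Nfe2l1, Ddi2, Ngly1, Ubqln1, Psma8 and others outside this rule were named after their values were seen. The family, the lists and the tests were chosen with earlier results of these data known. The fit was tested on simulated counts. Some genes of these lists are not reported here.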

Additional observations from a re-analysis of the deposited data

How the results depend on the processing

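Of the 48 members, 48 kept their side of the threshold between brown and white fat with DESeq2 size factors, 47 with DESeq2, 47 with limma-voom, 46 without the filter and 42 with upper quartile scaling. Upper quartile scaling moved the median of all genes from -0.11 to -0.17 and that of the constitutive genes from 0.55 to 0.48. It gave 30 higher and 5 lower members, where Psma5, Psmc3, Psmd1, Psmg3 and Psmg4 lost their calls. Leaving out each library in turn gave 32 to 37 higher and 3 to 4 lower members, with Psmb8 between -0.95 and -0.68 and the Psmb8 to Psmb5 ratio between -2.06 and -1.55.

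The count of members called between iWAT and eWAT was the least stable. Against 7 it was 12 with DESeq2, 0 with only these depots in the fit, 3 without iWAT 1 and 3 and from 3 to 24 when 1 library was left out. The fit without iWAT 1 and 3 and the ratios against eWAT alone were chosen after seeing the data. The former gave 1 call between scBAT and iBAT. It also turned Psme1 to 0.22 between brown and white, to 0.16 between iBAT and iWAT and to 0.16 between scBAT and iWAT, and Psmc3ip to 0.067. The cause was not tested.

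Other turns of direction were in genes that were not called. With 1 library left out, Psme1 ran from -0.13 to 0.074 and Psmc2 from -0.058 to 0.015 between brown and white, Psmb9 from -0.095 to 0.043 between scBAT and eWAT and Psmb10 from -0.064 to 0.029 between iBAT and eWAT. The last was 0.0028 without iWAT 1 and 3 and 0.00016 with only these depots.

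Whether the replicate numbers pair the samples is not stated in the labels. Of 18 same-number pairs, 5 correlated over 0.1 (range -0.18 to 0.23), and 3 of 12 libraries matched their own number best. With 3 libraries per depot, these values cannot exclude pairing. A replicate block left 46 of the 48 members on their side of the threshold, with 33 higher, and gave an exact permutation p of 0.00926 for the ratios, the smallest possible. Depth limits Psma8 and Psmb11, with at most 13 and 2 counts in a library.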
